A study of Homo sapiens with 12 samples.

Results

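The CDK inhibitors, D-type cyclins and G1 kinases are the genes that set how readily a cell leaves G1, the phase before DNA replication. They were described here in 10 genes chosen by symbol from the combined count table, namely CDKN1A, CDKN1B, CDKN1C, CDKN2A, CDKN2B, CCND1, CCND2, CCND3, CDK4 and CDK6, out of 58735 gene rows. RNA had been sequenced from SW872, an established human liposarcoma cell line that stably expressed either TAZ-CAMTA1 (TC) or YAP-TFE3 (YT), the fusion proteins of epithelioid hemangioendothelioma. Each line also carried a stable short hairpin, which was non-targeting (shNT) or was directed against YEATS2 (shYEATS2) or ZZZ3 (shZZZ3), which both belong to ATAC, a complex that acetylates histones. The 6 groups, TC shNT, TC shYEATS2, TC shZZZ3, YT shNT, YT shYEATS2 and YT shZZZ3, held 2 libraries each, 12 in all. Every group therefore carried a fusion and a hairpin, and no library analysed here came from SW872 cells without a fusion. The study describes the fusions as carried by a retrovirus with a neomycin resistance gene, and the study's methods give a lentiviral vector with puromycin selection for its hairpins against another gene. Which of the hairpins per gene was used here is not given in the sources used here. The study calls the libraries of a group biological duplicates and describes separate transductions with the constructs for its sequencing in triplicate; whether these duplicates were made in that way is not stated, and p-values measure the spread between these libraries. For its other RNA sequencing the methods give a lower density at collection for lines with CAMTA1 than for the rest. Whether that covered TC, and at what density the cells of these libraries were collected, is not given, and if the lines differed in density, density and fusion cannot be told apart.

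A cell in G1 makes D-type cyclins in response to growth signals, and these bind and activate the kinases CDK4 and CDK6, which begin to phosphorylate the retinoblastoma protein and so release the E2F factors that switch on DNA replication genes. The INK4 inhibitors, encoded by CDKN2A and CDKN2B, bind CDK4 and CDK6 and keep the D-type cyclins from them. The CIP/KIP inhibitors, encoded by CDKN1A, CDKN1B and CDKN1C, block the cyclin complexes that act later, such as those of CDK2. YAP and TAZ, the N-terminal partners of the fusions, reach DNA through TEAD factors, and the wild-type proteins are known inducers of growth genes.

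The promoters of CDKN1A and CDKN2B are shown because both genes were called between the control groups, and those of CDKN2A because it lies beside CDKN2B and was not called in any comparison. The RefSeq promoter table (GRCh38.p14) held 7 of the 10 genes; CDKN1C, CCND1 and CCND2 were not among them. Each sequence is the 250 bases before the start, on the strand of the gene, and capitals mark matches to the Sp1 motif GGGCGG and the TEAD motif GGAATG on either strand.
CDKN1A, chr6:36678464-36678713, plus strand: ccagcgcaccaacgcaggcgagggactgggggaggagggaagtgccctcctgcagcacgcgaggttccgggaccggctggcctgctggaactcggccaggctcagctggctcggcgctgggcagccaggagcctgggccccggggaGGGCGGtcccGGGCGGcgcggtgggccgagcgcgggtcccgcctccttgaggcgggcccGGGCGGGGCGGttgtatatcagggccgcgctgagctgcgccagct
CDKN2B, chr9:22009306-22009555, minus strand: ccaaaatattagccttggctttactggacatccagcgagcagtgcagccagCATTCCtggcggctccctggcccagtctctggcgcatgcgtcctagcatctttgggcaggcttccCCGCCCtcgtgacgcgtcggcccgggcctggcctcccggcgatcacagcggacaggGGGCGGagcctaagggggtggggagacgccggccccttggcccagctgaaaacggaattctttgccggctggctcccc
CDKN2A, upstream start, chr9:21995325-21995574, minus strand: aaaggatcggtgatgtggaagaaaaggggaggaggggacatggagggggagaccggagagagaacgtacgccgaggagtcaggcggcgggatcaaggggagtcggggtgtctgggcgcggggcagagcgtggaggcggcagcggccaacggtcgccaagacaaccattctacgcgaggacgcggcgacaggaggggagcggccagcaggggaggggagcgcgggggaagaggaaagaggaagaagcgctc
CDKN2A, downstream start, chr9:21974858-21975107, minus strand: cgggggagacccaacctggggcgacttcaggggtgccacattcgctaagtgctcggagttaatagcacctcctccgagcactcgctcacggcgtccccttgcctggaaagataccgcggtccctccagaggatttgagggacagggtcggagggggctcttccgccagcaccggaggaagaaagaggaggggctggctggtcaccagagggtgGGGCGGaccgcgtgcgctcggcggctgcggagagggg

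The CDKN2B promoter held 1 TEAD match, 199 bases before the start and written as CATTCC on the strand of the gene, and 2 Sp1 matches. The CDKN1A promoter held 4 Sp1 matches, of which the last 2 share 1 base, and no TEAD match. Neither CDKN2A window held a TEAD match, and 1 of them held 1 Sp1 match. Among 35116 promoter windows of the same length in the table, 11.9% held the TEAD letters and 42.6% the Sp1 letters. Further motifs were searched in the 7 genes on both strands, namely the E-box CACGTG (6.34% of all windows), the E2F motifs TTTCGCGC and TTTGGCGC (0.968%) and the AP-1 motif TGANTCA (6.57%). The CDK4 promoter held 3 E-box matches, and 1 of the 3 starts of CCND3 held a TEAD match at 41 bases. No E2F or AP-1 match was found in the windows of these genes. A match of letters is a description of the window and was not tested as a binding site.

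Total counts per library ranged from 17451893 to 29294805, and levels are given as CPM, the counts scaled to a fixed library total, after TMM normalisation, which sets the libraries to a common scale. Called here means an adjusted p under 0.05 in edgeR's quasi-likelihood test, with Benjamini-Hochberg adjustment over the 18415 genes tested. The YEATS2 RNA fell by 1.54 on the log2 scale with its hairpin in TC (adjusted p = 0.0138) and fell by 1.68 in YT (adjusted p = 1.04e-04). With the YEATS2 hairpin the ZZZ3 RNA had log2 differences of -0.95 in YT (SE 0.417, adjusted p = 0.130) and -0.05 in TC. With its own hairpin it had a log2 difference of -0.94 in TC (SE 0.419, adjusted p = 0.450) and fell by 1.51 in YT (adjusted p = 0.0453). Between YT shYEATS2 and YT shZZZ3 the ZZZ3 RNA differed by 0.56 (adjusted p = 0.212). The ZZZ3 call in YT was lost on leaving out any 1 library other than TC shNT replicate 1 or 2 or YT shZZZ3 replicate 2 (adjusted p = 0.0666 to 0.296), and the difference in TC was -0.22 without TC shNT replicate 2. Mesenchymal markers were present in all libraries, from VIM at 696 to 2152 CPM down to THY1 at 15.2 to 63.9 CPM. Adipocyte markers were mixed. FABP4 and ADIPOQ had no more than 7 and 1 counts, whereas PPARG had 816 to 3093 and LPL 1575 to 5690. The leukocyte genes PTPRC and CD68 had up to 3 and 1 counts and CD14 had 12 to 93. The epithelial genes EPCAM, CDH1 and KRT19 had up to 37, 17 and 15 counts. Of the endothelial genes, CDH5 was at 10.8 to 91.4 CPM, PECAM1 at 2.06 to 22.2 and VWF at 0.69 to 3.17. Levels also varied with GC content between libraries of the same group: between genes of 40% and 60% GC the fitted shift ran from -0.39 to 0.33 (log2) in TC shNT replicate 1 and from 0.37 to -0.19 in TC shNT replicate 2.

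All 10 genes passed the filter of a mean of 5 counts per library. CCND2 passed only because of its counts in YT shNT, the group in which it was highest. Between the control groups, YT shNT and TC shNT, 4 of the 10 genes were called, all higher in YT shNT: CDKN1A, CDKN2B, CCND1 and CCND2. Of all genes tested 9.23% were called in this comparison, 5.58% higher and 3.65% lower. Without CCND2 the count was 3 of 9. The median log2 difference of the 10 genes was 0.17, beside -0.01 over all genes. CDKN1B, CDKN1C, CDKN2A, CCND3, CDK4 and CDK6 were not called in any of the 7 main or 8 further comparisons.

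**Figure D1:**
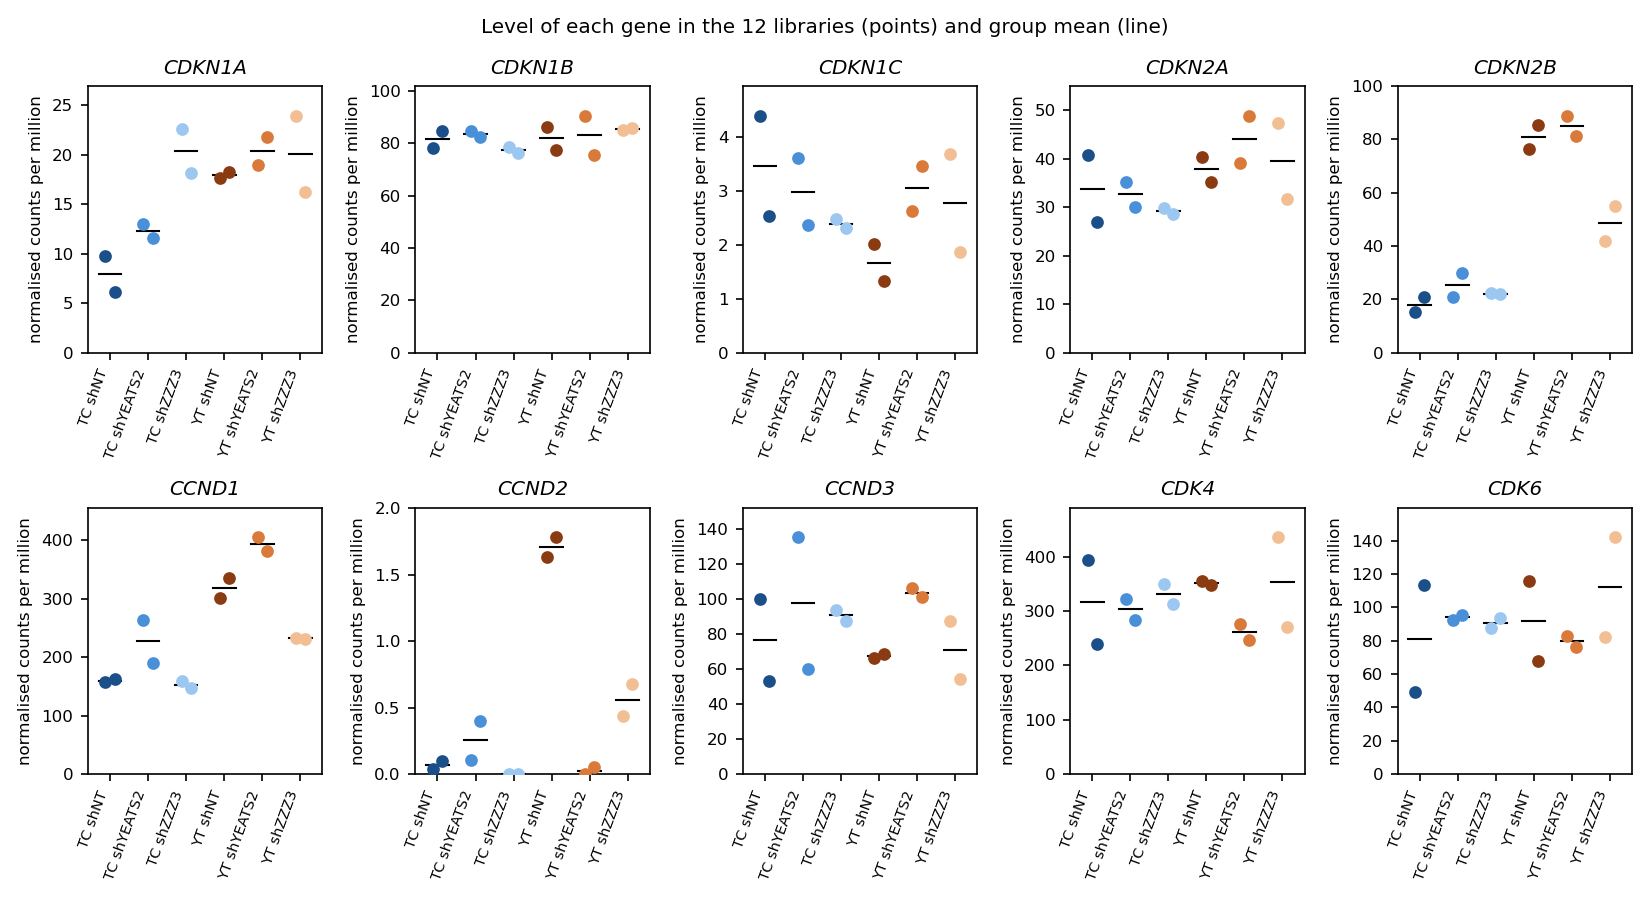
Normalised CPM of the 10 genes (vertical axes, linear, from 0, with a separate scale for each gene) in the 12 libraries; points are libraries and lines are group means. CDKN2B is higher in every YT library than in any TC library, CCND1 is highest in YT shYEATS2 and YT shNT, CDKN1A is lowest in TC shNT, CCND2 is highest in YT shNT, and CDKN1B is level over the 6 groups.

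CDKN1A encodes p21, the CIP/KIP inhibitor that p53 induces after DNA damage. Its level was 9.73 and 6.12 CPM in TC shNT, and with shYEATS2 and shZZZ3 in the same line it was 13.0 and 11.6, and 22.6 and 18.2, respectively. In the YT groups it was 17.6 and 18.3 with shNT, 18.9 and 21.8 with shYEATS2, and 23.9 and 16.2 with shZZZ3. TC shNT was thus the lowest group, TC shYEATS2 came next without overlap with any other group, and the remaining groups lay close together, at 16.2 to 23.9 CPM. CDKN1A was the only one of the 10 genes called with the ZZZ3 hairpin in TC, where 1.53% of all genes were called (0.934% higher and 0.592% lower). It rose by 1.35 on the log2 scale (SE 0.270, 2.55-fold, adjusted p = 0.0316).

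The call on CDKN1A in TC rested on few libraries. Without TC shNT replicate 2 the log2 difference was 1.04 (adjusted p = 0.132), without TC shZZZ3 replicate 1 it was 1.19 (adjusted p = 0.295), and without TC shZZZ3 replicate 2 its adjusted p was 0.137. It was also above the threshold without any 1 library of YT shNT or YT shYEATS2, at adjusted p = 0.0677 to 0.0691, and 0.139 in a fit of TC shNT and TC shZZZ3 alone. With the YEATS2 hairpin in TC the log2 difference of CDKN1A was 0.62 (SE 0.272, adjusted p = 0.927), although the libraries did not overlap.

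In YT the same gene showed no call. Its log2 difference was 0.18 with shYEATS2 (SE 0.267, adjusted p = 0.656) and 0.16 with shZZZ3 (SE 0.267, adjusted p = 0.760). The difference between lines in the effect of the ZZZ3 hairpin, YT minus TC, was -1.19 (SE 0.380, adjusted p = 0.115). It passed the threshold with DESeq2 (adjusted p = 0.0435) and with the GC trend of each library removed (-1.36, adjusted p = 0.00226). Leaving out single libraries gave values from -1.53 to -0.86. For the YEATS2 hairpin that difference was -0.44 (adjusted p = 0.519), and it passed with the GC trend and the replicate number both in the fit (-0.64, adjusted p = 0.0488).

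Between the controls CDKN1A was 2.25-fold higher with YT than with TC (log2 1.17, SE 0.271, adjusted p = 0.0213). Without TC shNT replicate 2 the log2 value was 0.85 (adjusted p = 0.0568), without YT shNT replicate 1 it was 1.17 (adjusted p = 0.113), and without YT shNT replicate 2 it was 1.10 (adjusted p = 0.133). A fit of these 2 groups alone gave 1.17 (adjusted p = 0.0757). YT shYEATS2 and YT shZZZ3 were also higher than TC shNT (log2 1.35, adjusted p = 0.00818, and 1.33, adjusted p = 0.0244), which compares groups that differ in both fusion and hairpin. Between YT shZZZ3 and TC shZZZ3 the log2 difference was -0.02, with a 95% interval of -0.60 to 0.56.

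CDKN1B, which encodes p27, was the most level of the 10 genes. Its group means lay between 77.4 CPM (TC shZZZ3) and 85.6 CPM (YT shZZZ3), a span of 0.14 on the log2 scale, and its 12 libraries between 75.5 and 90.7 CPM. The widest difference in its fit, YT shZZZ3 against TC shZZZ3, was 0.14 on the log2 scale (95% interval -0.21 to 0.50).

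CDKN1C, which encodes p57 and is expressed from the maternal allele in most tissues, was scarce, with 23 to 115 counts per library. Its level was 4.39 and 2.53 CPM in TC shNT; the lowest group was YT shNT, at 2.01 and 1.32 CPM, and these did not overlap. The log2 difference was -1.02 (SE 0.417, 95% interval -1.93 to -0.11, adjusted p = 0.146). It passed the threshold with no filter on low counts (adjusted p = 0.0315), and it ran from -1.38 to -0.60 on leaving out single libraries. With shYEATS2 in YT it was at 2.62 and 3.46 CPM, a log2 difference from YT shNT of 0.83 (SE 0.421, adjusted p = 0.169).

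CDKN2B, which encodes the INK4 inhibitor p15 and is known as a gene induced by TGF-beta, differed between the lines under every hairpin. In TC it was at 15.1 and 20.9 CPM with shNT, 20.9 and 29.9 with shYEATS2, and 22.3 and 22.1 with shZZZ3. In YT it was at 76.5 and 85.3 CPM with shNT, 89.0 and 81.3 with shYEATS2, and 41.8 and 55.2 with shZZZ3. The lowest YT library thus lay above the highest TC library, and within YT both shZZZ3 libraries lay below the other 4. Between the controls CDKN2B was 4.48-fold higher with YT (log2 2.16, SE 0.232, adjusted p = 3.5e-04). The line difference was 1.74 on the log2 scale with shYEATS2 (SE 0.230, adjusted p = 6.65e-04) and 2.18-fold with shZZZ3 (adjusted p = 0.0273), where 12.2% and 2.62% of all genes were called.

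The hairpins moved CDKN2B less. With shZZZ3 in YT its log2 difference was -0.74 (SE 0.229, 95% interval -1.24 to -0.24, adjusted p = 0.0671). None of the 10 genes was called in this comparison by edgeR, in which 10% of all genes were called (4.40% higher and 5.62% lower); 3 of the 10 had an unadjusted p under 0.05, and DESeq2 called 1, which was CDKN2B (-0.73, adjusted p = 0.0367). CDKN2B also passed with the GC trend removed (-0.75, adjusted p = 0.0226). Its log2 difference ran from -0.96 to -0.50 on leaving out single libraries. With shYEATS2 in YT its log2 difference was 0.07 (95% interval -0.43 to 0.58). In TC it was 0.49 with shYEATS2 (SE 0.233, adjusted p = 1) and 0.30 with shZZZ3 (SE 0.234, adjusted p = 0.782).

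The effect of the ZZZ3 hairpin on CDKN2B differed between the lines by -1.04 (SE 0.327, adjusted p = 0.113), and by -1.02 with the GC trend removed (adjusted p = 0.0442). None of the 10 genes was called in this interaction by edgeR, where 4.32% of all genes were called (1.46% higher and 2.86% lower); 3 had an unadjusted p under 0.05, and DESeq2 called 1, which was CDKN1A. For the YEATS2 hairpin the difference of CDKN2B was -0.42 (SE 0.327, adjusted p = 0.473).

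CDKN2A lies beside CDKN2B on chromosome 9 and encodes both the INK4 inhibitor p16 and, from its upstream start, p14ARF, which restrains MDM2; the counts of the gene do not separate these. It was at 40.7 and 26.9 CPM in TC shNT and at 40.4 and 35.1 CPM in YT shNT, and these libraries overlapped. The log2 difference was 0.16 (95% interval -0.40 to 0.71, adjusted p = 0.746), and 0.40 with the GC trend removed (adjusted p = 0.0470). Over the 12 libraries CDKN2A lay between 26.9 and 48.9 CPM, with the lowest group mean in TC shZZZ3 (29.3 CPM) and the highest in YT shYEATS2. CDKN2B-AS1, which overlaps both genes on the other strand, had 39 to 80 counts per library.

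Per kilobase of exon, which allows levels of different genes to be compared, CDKN2A and CDKN2B together were at 14.3 and 12.2 CPM per kilobase for TC shNT and at 29.5 and 30.4 for YT shNT. The share of CDKN2B in that sum was 26.6% and 42.9% with TC shNT. It was 64.8% and 70.2% with YT shNT, against 46.1% and 62.8% with YT shZZZ3. CDKN2B was thus below CDKN2A, whose count also includes p14ARF, in every TC library, with 49.1% of the sum in TC shYEATS2 replicate 2. It was above CDKN2A in 5 of the 6 YT libraries, the exception being YT shZZZ3 replicate 1. The level of p16 alone cannot be read from these counts. These genes are similar in sequence, and how reads that map to several places were counted is not given in the sources used here.

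**Figure D2:**
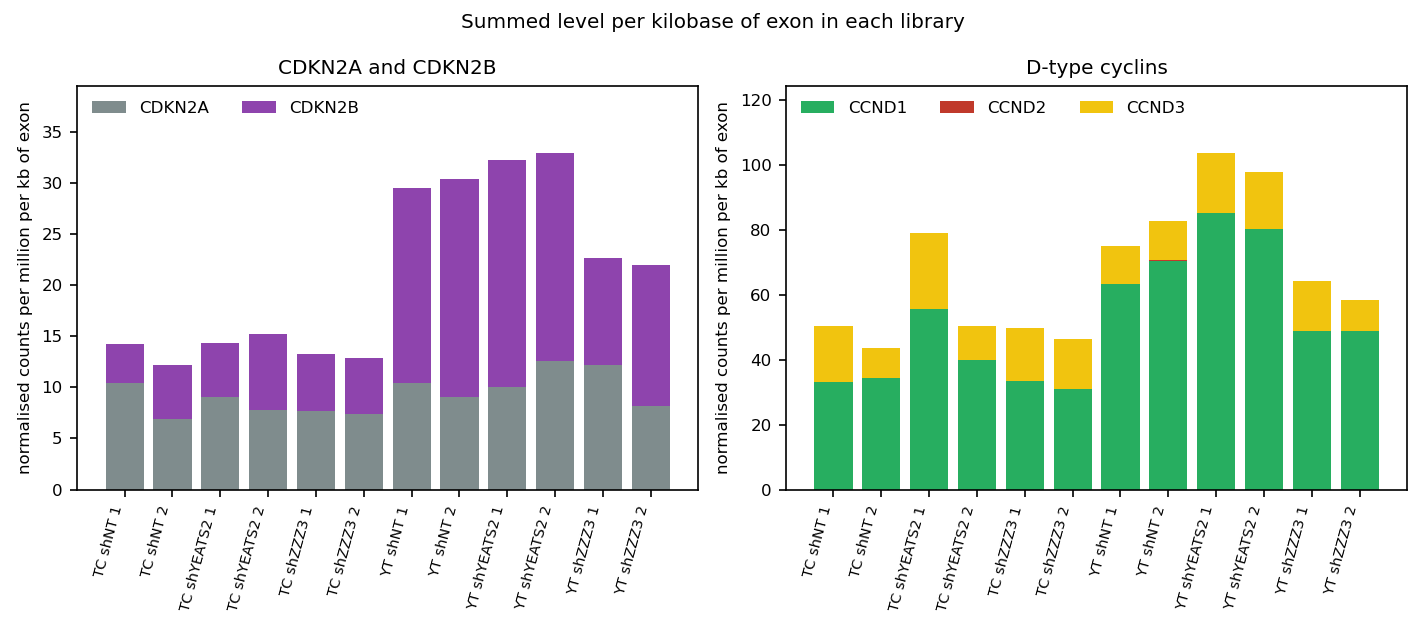
Stacked level per kilobase of annotated exon (CPM per kilobase, linear axes from 0) of CDKN2A and CDKN2B (left) and of the D-type cyclins (right) in each library. The CDKN2B part grows in the YT libraries while the CDKN2A part stays between 6.94 and 12.6; CCND2, at most 0.223, is too low to be seen beside CCND1 and CCND3.

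CCND1 encodes cyclin D1, the most abundant of the D-type cyclins here. In TC it was at 157 and 163 CPM with shNT, 264 and 189 with shYEATS2, and 159 and 148 with shZZZ3. In YT it was at 301 and 335 CPM with shNT, 405 and 381 with shYEATS2, and 232 and 232 with shZZZ3. In each line the order was the same, with shYEATS2 above shNT and shZZZ3 the lowest mean, although in TC the shNT and shZZZ3 libraries overlapped, and the YT group lay above the TC group of the same hairpin without overlap. Between the controls CCND1 was 1.99-fold higher with YT (log2 0.99, SE 0.182, adjusted p = 0.00649), and 0.87 on the log2 scale without YT shNT replicate 2 (adjusted p = 0.0866). The line difference was 0.79 with shYEATS2 (adjusted p = 0.0151) and 0.60 with shZZZ3 (adjusted p = 0.132).

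No single hairpin gave a call on CCND1 against shNT. Its log2 difference was 0.50 with shYEATS2 in TC (SE 0.182, adjusted p = 0.732), a comparison in which 0.0434% of all genes were called (0.0326% higher and 0.0109% lower). None of the 10 genes was called there by edgeR or by DESeq2, and 2 had an unadjusted p under 0.05, CDKN1A and CCND1. In YT it was 0.31 with shYEATS2 (SE 0.182, adjusted p = 0.253) and -0.45 with shZZZ3 (SE 0.182, adjusted p = 0.150), and in TC -0.06 with shZZZ3. The difference with shYEATS2 in YT passed in a fit of those groups alone (adjusted p = 0.0211), in which 48.6% of all genes were called. The hairpins compared with each other did differ in YT, where CCND1 was 1.69-fold higher with shYEATS2 than with shZZZ3 (log2 0.76, SE 0.182, adjusted p = 0.0274, beside 7.21% of all genes called); in TC that difference was 0.57 (adjusted p = 0.220).

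CCND2 encodes cyclin D2 and was counted in few reads. YT shNT had 31 counts in each library, YT shYEATS2 had 0 and 1, and YT shZZZ3 had 12 and 16. In TC there were 1 and 2 counts with shNT, 3 and 8 with shYEATS2, and 0 and 0 with shZZZ3. YT shNT was thus the highest group and YT shZZZ3 the next, with no overlap between them or with the rest. The 3 counts that a count of 0 allows correspond to 0.122 and 0.160 CPM in the TC shZZZ3 libraries, and intervals on CCND2 cover counting error only.

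CCND2 passed the filter on low counts only through YT shNT, so its calls and p-values are given only as a description of its counts. It was called in 3 of the 7 main comparisons, all of which include YT shNT. With shYEATS2 in YT it fell (adjusted p = 0.00118); the ratio of the summed counts, scaled to library size, was 74.1 in favour of YT shNT, with an exact 95% interval of 12.8 to 2972 from 62 counts against 1. It was the only one of the 10 genes called in this comparison, where 20.7% of all genes were called (9.61% higher and 11.1% lower). YT shNT was above TC shNT (adjusted p = 0.00362) with a ratio of 26.8, interval 8.76 to 134, from 62 counts against 3. The effect of the YEATS2 hairpin differed between the lines (adjusted p = 0.00548), again as the only call among the 10 genes beside 9.37% of all genes (3.53% higher and 5.84% lower).

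With shZZZ3 in YT the CCND2 ratio was 3.12 in favour of YT shNT, interval 1.96 to 5.06, from 62 counts against 28 (log2 -1.49, SE 0.528, adjusted p = 0.0823). That value passed with no filter on low counts (adjusted p = 0.0382) and with the GC trend removed (adjusted p = 0.0411). It ran from -1.78 to -1.18 on the log2 scale on leaving out single libraries. YT shYEATS2 was below YT shZZZ3 (adjusted p = 0.0261) with a ratio of 23.8, interval 3.93 to 972. YT shZZZ3 was at least 7.91-fold higher than TC shZZZ3, taken against 3 counts over the latter group (adjusted p = 0.0273).

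CCND3 encodes cyclin D3 and reached 135 CPM. Its libraries differed within groups by up to 1.18 on the log2 scale, in TC shYEATS2, and overlapped between the controls. In YT it was at 66.3 and 68.6 CPM with shNT and at 106 and 101 with shYEATS2, which did not overlap, with a log2 difference of 0.62 (SE 0.372, 95% interval -0.20 to 1.43, adjusted p = 0.258). That difference passed in a fit of those groups alone (adjusted p = 2.9e-04), in which 48.6% of all genes were called. It also passed with no filter on low counts (adjusted p = 0.0488, beside 14.8% of all genes).

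Summed per kilobase of exon, the D-type cyclins were at 50.3 and 43.4 CPM per kilobase in TC shNT; in YT they were at 74.9 and 82.5 with shNT, at 103 and 97.6 with shYEATS2, and at 64.1 and 58.2 with shZZZ3. CCND1 made up 65.6% to 85.3% of the sum over the 12 libraries, CCND3 nearly all of the remainder, and CCND2 at most 0.274%. CCND2 thus varied by a large ratio at a level far below those of the other D-type cyclins.

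CDK4 was at 77.2 to 141 CPM per kilobase, the highest of the 10 genes in every library but YT shYEATS2 replicate 2, where CCND1 was at 80.1 and CDK4 at 79.9, and made up 88.3% to 96.9% of the summed level of CDK4 and CDK6. It was at 393 and 239 CPM in TC shNT, and in YT at 355 and 348 with shNT and at 277 and 247 with shYEATS2. With shYEATS2 in YT the libraries lay below those of YT shNT (log2 -0.42, SE 0.261, adjusted p = 0.271). The difference passed with the GC trend removed (-0.55, adjusted p = 0.0246) and in a fit of those groups alone (adjusted p = 0.00286). These settings called 31.2% and 48.6% of all genes. The gene TSPAN31 overlaps CDK4 on the other strand and had 1130 to 2118 counts per library, against 4787 to 11982 for CDK4; the library kit kept strand, and whether counting used it is not given in the sources used here.

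CDK6 was at 49.0 to 142 CPM and spread widely within groups. Its libraries were at 49.0 and 114 CPM in TC shNT, and in YT at 116 and 68.0 with shNT and at 82.1 and 142 with shZZZ3. The 3 other groups were close, at 76.5 to 95.6 CPM, and lay inside that range, so that no order of the groups could be read for CDK6.

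The differences between libraries of a group moved with GC content for some of the genes. CDK6 has exons of 40.6% GC, and in TC shNT and YT shZZZ3, where replicate 1 was lower for CDK6 by 1.21 and 0.79 on the log2 scale, replicate 1 was higher for CDKN1C (62.4% GC) by 0.77 and 0.95. CDKN2A (60.4%), CCND3 (59.3%), CDKN1A (58.5%) and CDK4 (55.7%) were also higher in replicate 1 of both groups, by 0.56 to 0.91. CCND1 (56.0%) differed by -0.05 and 0.00362 and CDKN1B (41.0%) by -0.11 and -0.01 in these groups, unlike CDK4 and CDK6 of nearly the same GC content. Removing the GC trend of each library changed the mean absolute difference within groups. It went from 0.50 to 0.23 for CDK6 and from 0.33 to 0.10 for CDKN2A. For CDKN1C it went from 0.56 to 0.30 and for CDKN1A from 0.33 to 0.14. It went from 0.10 to 0.29 for CDKN1B and from 0.15 to 0.24 for CCND1, so the removal did not bring every gene closer.

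**Figure D3:**
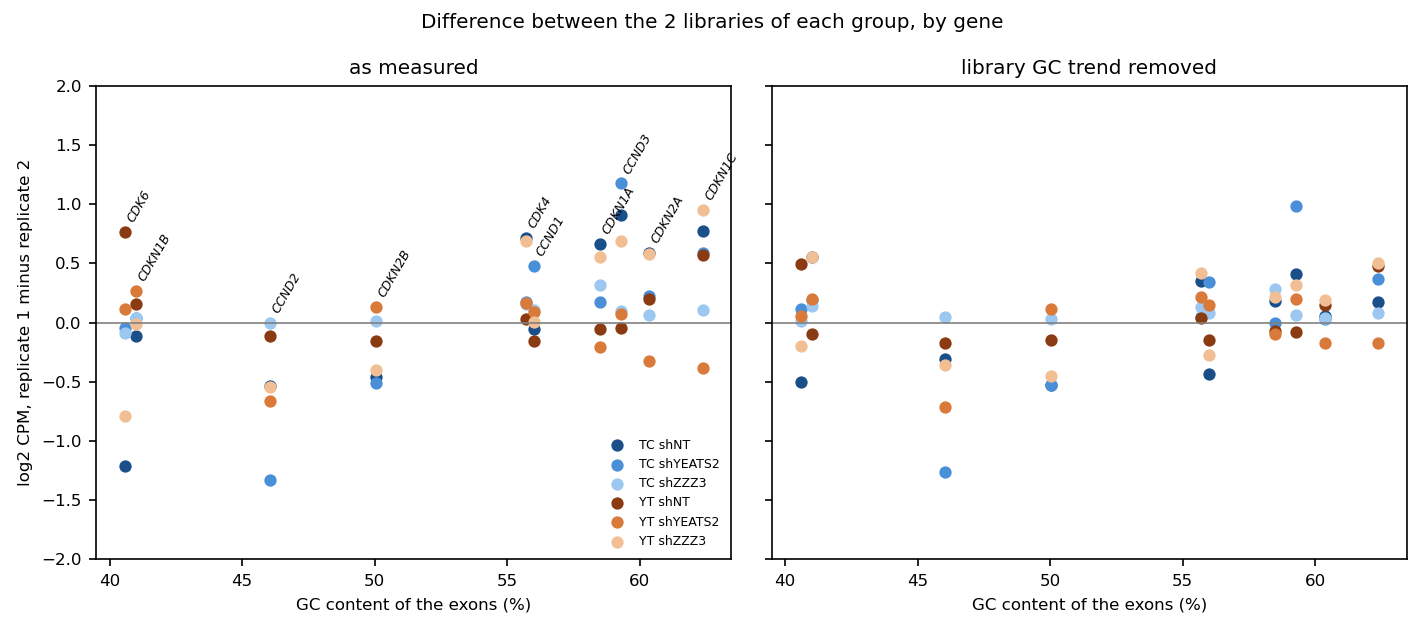
Log2 CPM of replicate 1 minus replicate 2 (vertical axis) against GC content of the exons in percent (horizontal axis) for the 10 genes, as measured (left) and with each library's fitted GC trend removed (right); each point is a gene in 1 of the 6 groups. On the left the TC shNT and YT shZZZ3 points run from -1.21 and -0.79 at CDK6 to 0.77 and 0.95 at CDKN1C. The mean of the absolute differences of CDK6, taken without sign, is 0.23 on the right.

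**Figure D4:**
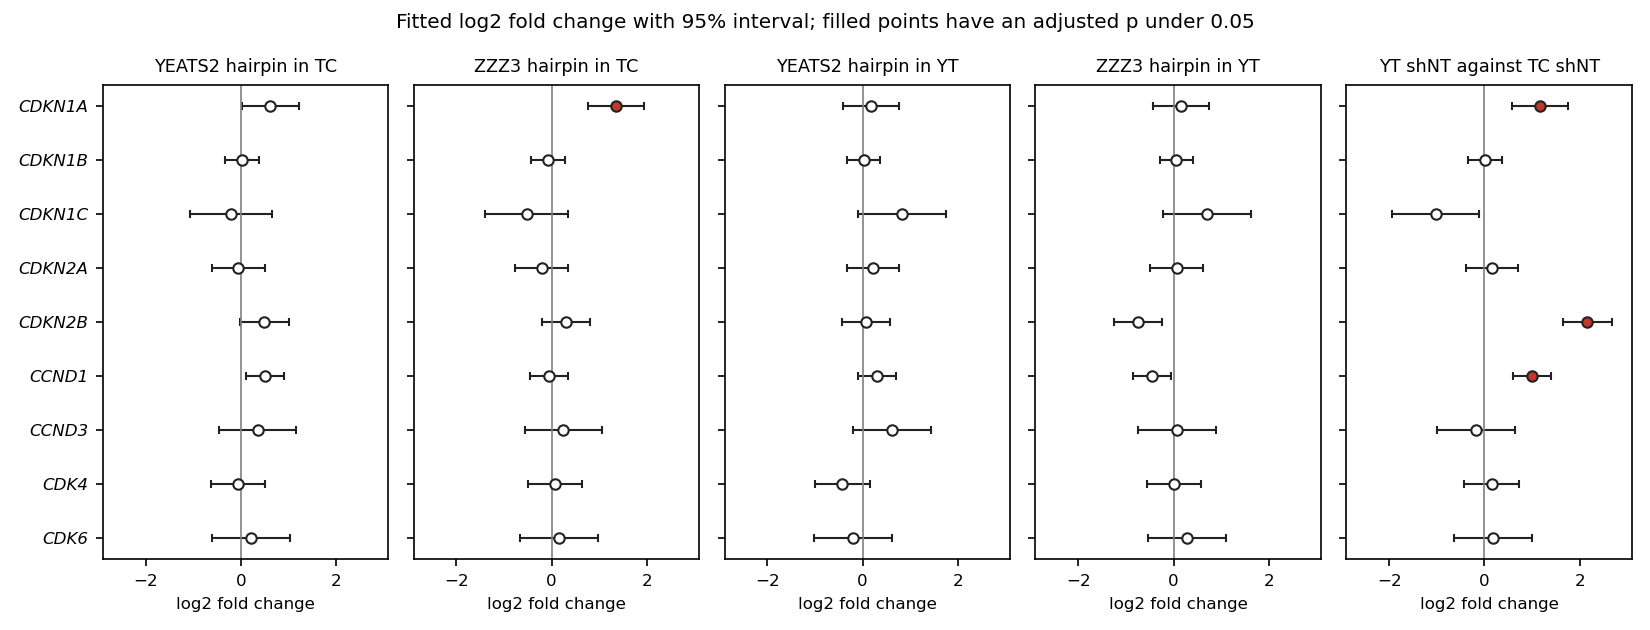
Fitted log2 fold change (horizontal axes) of 9 genes in the 4 hairpin comparisons and between the control groups; bars are 95% intervals and filled points have an adjusted p under 0.05. CCND2 is left out because groups at or near 0 counts give no usable interval. CDKN1A is filled in TC with shZZZ3, and CDKN1A, CDKN2B and CCND1 are filled between the controls.

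Other genes of G1 control were followed in a list of 27, all of them tested, to set the 10 genes beside their partners. Between the controls 3 were lower in YT shNT and 0 higher: CCNA2, the cyclin of S phase (-1.79), CDKN2C, another INK4 gene (-1.62), and E2F2 (-1.43). These were 11.1% of the list, beside 9.23% of all genes. Unlike CDKN2B, CDKN2C was thus lower in YT shNT. With shYEATS2 in YT 3 rose, CDKN2D (1.83), CDKN2C (1.12) and CCNA2 (1.05), and 3 fell, E2F5 (-1.35), E2F8 (-1.33) and RB1 (-1.27), the retinoblastoma gene, in all 22.2% of the list beside 20.7% of all genes. With shZZZ3 in YT 4 rose, CCNA2 (2.09), E2F2 (1.36), CDKN2C (1.03) and CDKN2D (0.98), and E2F5 fell (-0.98), in all 18.5% beside 10% of all genes. In TC edgeR called 0 with shYEATS2 and with shZZZ3, beside 0.0434% and 1.53% of all genes. There 1 and 3 had an unadjusted p under 0.05 with shYEATS2 and shZZZ3, and DESeq2 called 0 and 1. In the interactions CDKN2D (1.77) and E2F5 (-1.48) were called for the YEATS2 hairpin and CCNA2 (1.52) for the ZZZ3 hairpin. This was 7.41% and 3.7% of the list, beside 9.37% and 4.32% of all genes. The median log2 value of the list lay between -0.20 and 0.10 in the 7 comparisons.

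Proliferation genes, 20 in all, moved with the control comparison in which CDKN1A, CDKN2B, CCND1 and CCND2 were higher. Their summed level was 2406 to 2542 CPM in TC shNT and 1107 to 1109 in YT shNT, with 15 of 20 called lower and a median log2 difference of -1.17. It was 2590 to 2978 CPM in YT shZZZ3, where 15 were called higher (median 1.44) and CDKN2B was at its lowest in YT, and 1476 to 1577 in YT shYEATS2, where 6 were called higher (median 0.53). In TC shZZZ3, where CDKN1A was highest in TC, the sum was 3491 to 3697 CPM and all 20 log2 differences were above 0 (median 0.57), with 0 called by edgeR or DESeq2 and 10 at an unadjusted p under 0.05. With shYEATS2 in TC it was 1899 to 2998 CPM, with 0 called and 0 at an unadjusted p under 0.05. In TC 0.0434% and 1.53% of all genes were called with shYEATS2 and shZZZ3. The interactions called 2 genes higher for each hairpin, which was 10% of the list. Of all genes 9.37% and 4.32% were called in the YEATS2 and ZZZ3 interactions. The share called was 75% between the controls, 75% with shZZZ3 and 30% with shYEATS2 in YT, beside 9.23%, 10% and 20.7% of all genes. The part of growth state in the levels of the 10 genes was not tested, and in bulk RNA fewer cells of a kind and less RNA per cell cannot be told apart.

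A list of 20 target genes of p53, known to induce CDKN1A, had 19 members tested. Between the controls 4 were higher in YT shNT, GADD45A (1.55), SESN2 (1.46), ZMAT3 (1.20) and TNFRSF10B (1.19), and 0 were lower. In YT these fell with both hairpins, where CDKN1A did not: 6 of 19 were lower with shYEATS2, led by FAS (-1.82), SESN2 (-1.25), TNFRSF10B (-1.13) and ZMAT3 (-0.89), and 5 with shZZZ3, led by ZMAT3 (-1.73), FAS (-1.37), SESN2 (-1.34) and TNFRSF10B (-1.05). The share of the list called was 21.1% between the controls, 31.6% with shYEATS2 and 26.3% with shZZZ3 in YT, beside 9.23%, 20.7% and 10% of all genes. In TC with shZZZ3, where CDKN1A rose, edgeR and DESeq2 called 0 of 19, beside 1.53% and 2.89% of all genes. There 3 had an unadjusted p under 0.05. With shYEATS2 in TC these counts were 0, 0 and 1, where edgeR and DESeq2 called 0.0434% and 0.635% of all genes. The interaction called 2 for the YEATS2 hairpin, SESN2 (-2.19) and TNFRSF10B (-1.33), and 3 for the ZZZ3 hairpin, SESN2 (-1.73), TNFRSF10B (-1.32) and GADD45A (-1.17). This was 10.5% and 15.8% of the list, beside 9.37% and 4.32% of all genes. The median log2 value was 0.17 between the controls, -0.36 and -0.24 with shYEATS2 and shZZZ3 in YT, and 0.04 and 0.13 in TC. The part of p53 in the level of CDKN1A was not tested.

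A list of 16 genes that respond to TGF-beta, a known inducer of CDKN2B, changed in both directions. Between the controls 3 were higher in YT shNT, among them TGIF1 (1.22) and BHLHE40 (1.17), and 0 were lower. With shZZZ3 in YT 3 rose and 6 fell, among them TGFBI (1.40), LTBP2 (1.16) and TGIF1 (-1.15), and with shYEATS2 in YT 4 rose and 4 fell, among them LTBP2 (1.80), TGFBR2 (1.25) and TGFBI. The share of the list called was 18.8% between the controls, 56.2% with shZZZ3 in YT and 50% with shYEATS2 in YT, beside 9.23%, 10% and 20.7% of all genes. In TC shZZZ3 gave 2 calls, of which ID2 fell (-1.86). This was 12.5% of the list, beside 1.53% of all genes. With shYEATS2 in TC there were 0 calls with edgeR, beside 0.0434% of all genes. DESeq2 called 1 there, and 2 had an unadjusted p under 0.05. The interactions called 5 for the YEATS2 hairpin, among them LTBP2 (1.75), TGFBR2 (1.53) and TGIF1 (-1.29). For the ZZZ3 hairpin 4 were called, among them LTBP2 (1.51), TGIF1 (-1.50) and TGFBI (1.44). This was 31.2% and 25% of the list, beside 9.37% and 4.32% of all genes. The median log2 value was 0.05 between the controls and -0.16 with shZZZ3 in YT. Of 13 Polycomb genes, which silence the CDKN2A and CDKN2B locus in many cells, only PHC2 was called, with shYEATS2 in YT (1.07). This was 7.69% of that list, beside 20.7% of all genes. In the other 6 comparisons edgeR called 0 Polycomb genes, with 0 to 4 at an unadjusted p under 0.05 and 0 or 1 called by DESeq2.

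Protein-coding neighbours on the chromosome, 30 of them tested, were read beside the members. Between the controls 3 were higher in YT shNT: DMRTA1, next to CDKN2B (1.64, adjusted p = 0.0240), KCNQ1, next to CDKN1C, and FGF19, near CCND1. This was 10% of the neighbours, near the 9.23% of all genes. DMRTA1 was at 27 and 58 counts in TC shNT and at 128 and 92 in YT shNT. MTAP, on the other side of CDKN2A, was not called. FGF19 encodes a growth factor and had 27 and 36 counts in YT shNT, 3 and 0 with shYEATS2, 0 and 0 with shZZZ3, and at most 10 in any TC library, an order of groups in which YT shZZZ3 was not above YT shYEATS2 as it was for CCND2. KCNQ1 had 19 and 14 counts in YT shNT 1 to 4 in the other YT libraries, and 1 to 13 in the TC libraries. Like CCND2, FGF19 and KCNQ1 passed the filter on low counts through YT shNT, so their calls against that group are not read further.

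In the knock-downs of YT, 4 neighbours rose and 4 fell with shYEATS2 and 3 fell with shZZZ3, which was 26.7% and 10% of them beside 20.7% and 10% of all genes. Those that rose were CYP27B1 (2.18) near CDK4, PHLDA2 (2.14) near CDKN1C, CRACR2A (1.84) near CCND2 and MYEOV (1.53) near CCND1. AGAP2, near CDK4, fell with both (-1.07 and -1.43), and ELAVL2, beyond CDKN2B, fell with shYEATS2 from 26 and 17 counts to 2 and 2. The numbers that fell, and the shares, include KCNQ1 and FGF19 with both hairpins. These passed the filter through YT shNT and are not read further. In TC 0 of the 30 were called by edgeR with shYEATS2 and with shZZZ3, beside 0.0434% and 1.53% of all genes. There 1 and 3 had an unadjusted p under 0.05 with shYEATS2 and shZZZ3, and DESeq2 called 0 and 1.

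Genes whose group means ran most like those of the 4 varying genes were found by the root mean square difference of log2 group means over the 6 groups, among 13249 genes. For CDKN1A these were CCL2 (0.13) and CADM1 (0.16), for CDKN2B ITGA2 (0.15) and ELOVL7 (0.20), and for CCND1 SLC7A7 (0.06) and CPEB2 (0.13). For CCND2 the nearest were IL33 (0.28) and ZNF114 (0.55). The measure compares group means only and is a description.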

How the data were processed

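Libraries were stranded, poly(A)-selected and sequenced as paired ends, and per the labels reads were demultiplexed with bcl2fastq and placed on hg38. The methods name bcbio-nextgen, HISAT2 and Salmon with tximport; which of them gave the deposited counts is not given in the sources used here. The authors deposited raw whole-number counts per gene (Ensembl identifiers, no filter, no normalisation). The per-library and combined tables held equal values (0 cells differed). All columns belonged to labelled samples.

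Counts were scaled by TMM, and genes averaging 5 or more counts per library (12 libraries) were fitted with edgeR 4.0.16 (R 4.3.3; quasi-likelihood, robust, all 6 groups in 1 fit, 6 residual degrees of freedom, prior count 2). The 7 main and 8 further contrasts were two-sided and adjusted within each contrast by Benjamini-Hochberg. Standard errors and 95% intervals came from that fit. DESeq2 1.42.0 was an alternative. CCND2 ratios used exact binomial intervals of summed counts. Positions, exon lengths and GC content came from GENCODE 44 (GRCh38, matching hg38); 99.1% of identifiers matched. Exon length counts every annotated exon once, so genes with long rarely used exons read low per kilobase. The procedure was tested on simulated data.

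The genes, lists and tests were chosen with earlier results of these data known. Named genes were the 10 genes, the hairpin targets, per list and comparison at most the 4 called genes with the largest log2 value, the 2 nearest protein-coding genes on either side of each of the 10 genes, and the 2 genes of most like pattern for each of the 10 genes whose group means span at least 1 (log2). One gene that this rule names is not reported here. Alternatives were another scaling, library totals, no filter or a mean of 50 counts, DESeq2, fits of the compared groups alone, the replicate number as a block, removal of each library's GC trend, both together, and leaving out each library.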

Additional observations from a re-analysis of the deposited data

Results flagged for a closer look

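With the settings of the report, CCND2 was the only one of the 10 genes called in an interaction of hairpin and fusion line; with the GC trend removed CDKN1A (adjusted p = 0.00226) and CDKN2B (adjusted p = 0.0442) were also called for the ZZZ3 hairpin, and CDKN1A was called there without TC shNT replicate 1 (adjusted p = 0.0423) and with DESeq2 (adjusted p = 0.0435). The interaction of the YEATS2 hairpin, YT minus TC, was fitted at -5.09 on the log2 scale (adjusted p = 0.00548). With 0 and 1 counts in YT shYEATS2 and 1 and 2 in TC shNT, that value depends on the prior count and is not a bound. The counts behind it were 31 and 31 in YT shNT against 0 and 1 in YT shYEATS2, and 1 and 2 in TC shNT against 3 and 8 in TC shYEATS2; the difference in TC was not called. CCND2 passed the filter on low counts only through its counts in YT shNT. In this interaction 3 of the 4 groups held 0 to 8 counts per library, so the call is given as a description of these counts. Groups of 2 libraries cannot show whether 1 of them stands apart.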

How the results depend on the processing

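The count of called genes among the 10 changed with the processing in 6 of the 7 main comparisons. With shYEATS2 in YT it was 1 (beside 20.7% of all genes), but 2 with no filter on low counts (14.8%). A mean of at least 50 counts, which removes CCND2, gave 0 (22.2%), and a fit of those groups alone gave 5 (48.6%). With the GC trend removed it was 2 (31.2%), and 2 with the replicate block added to that (35.4%). With shZZZ3 in YT it was 0, but 1 with no filter (8.13%), 1 with DESeq2 (12.8%), 2 with the GC trend removed (20.5%), and 0 to 1 on leaving out libraries (1 without TC shNT replicate 1 or 2 or TC shYEATS2 replicate 1). With shZZZ3 in TC it was 1 (1.53%), but 0 in a fit of those groups alone (0.848%). The call was also lost on leaving out some single libraries. For the YEATS2 interaction it was 1 (9.37%), but 0 with a mean of at least 50 counts (9.61%). For the ZZZ3 interaction it was 0, but 1 with DESeq2 (6.92%), 2 with the GC trend removed (11.1%), and 0 to 1 on leaving out libraries (1 without TC shNT replicate 1). Between the controls it was 4 (9.23%), but 3 in a fit of those groups alone (without CDKN1A, 5.45%). A mean of at least 50 counts also gave 3 (10%). It was 5 with no filter (with CDKN1C, 8.22%) and 5 with the GC trend removed (with CDKN2A, 18.3%). The count was lower on leaving out either library of YT shNT, and lowest without replicate 2. The cause of these changes was not tested, apart from the removal of CCND2.

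The main fit did not pair the samples by replicate number. The difference of replicate 1 minus 2 correlated between groups by -0.44 (TC shNT with YT shNT) to 0.90 (TC shNT with YT shZZZ3) over genes. Whether replicate numbers mark a pairing was not tested. With the replicate block the count was 2 for shZZZ3 in YT (CDKN2B, adjusted p = 0.0302, and CCND2, 0.0428), beside 12.4% of all genes. With the replicate block and the GC trend removed together it was 3 there (24.4% of all genes) and 5 between the controls (21.6%). In that fit it was 2 for the YEATS2 interaction (23.4%) and 2 for the ZZZ3 interaction (13.8%). The block alone changed no other call among the 10 genes.

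Of 684 recomputed values for 33 results on single genes of the 10, 636 kept their direction and side of the threshold, 13 lost and 30 gained a call, and 5 changed sign, none of which was called. The log2 value of CCND2 in the ZZZ3 interaction was 1.30 with DESeq2. On leaving out libraries CCND1 in the YEATS2 interaction ran from -0.39 to 0.0899, CDKN1A with shZZZ3 in YT from -0.0945 to 0.41, CDKN2A between the controls from -0.13 to 0.46 and CDKN2B with shYEATS2 in YT from -0.00343 to 0.17. CDKN2B between the controls kept its call under all alternatives, with log2 values of 1.92 to 2.38 on leaving out libraries. Of 2645 recomputed values for 127 results on other named genes, 2252 kept direction and call, 390 lost and 3 gained a call, and 0 changed sign.

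Counts over all genes moved too. With DESeq2 they were 117 in place of 8 for shYEATS2 in TC, 532 in place of 281 for shZZZ3 in TC and 1274 in place of 795 for the ZZZ3 interaction. With the GC trend removed they were 86 and 744 for shYEATS2 and shZZZ3 in TC, 5747 in place of 3821 and 3777 in place of 1846 in YT, 3614 in place of 1725 and 2051 for the interactions, and 3373 in place of 1699 between the controls. With no filter they were 213 and 744 in TC, 2611 and 1549 for the interactions and 2710 between the controls. Fits of the compared groups alone called 2 and 155 in TC, 8784 for shYEATS2 in YT and 994 between the controls, and a mean of at least 50 counts gave 171 for shZZZ3 in TC.

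With 2 libraries per group the spread within a group is poorly known, and CCND2 and CDKN1C are limited by their counts.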
